A study of Mus musculus with 24 samples.

Results

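The genes described here are 9 transcription factors of cortical excitatory neurons, out of 25135 genes listed for each age: the basic helix-loop-helix factors Neurod1, Neurod2, Neurod6 and Bhlhe22, the nuclear factor I genes Nfia, Nfib and Nfix, the zinc finger gene Bcl11a and the MADS box gene Mef2c. They were chosen by gene symbol and not by a threshold on their values, though with earlier results of these data known. All 9 were listed at both ages. RNA was sequenced from SUN1-GFP+ nuclei that had been sorted from mouse cortex by FANS (fluorescence-activated nuclei sorting). Each of 4 groups held 6 libraries: WT (Kdm6b wt/wt) and Kdm6b-cKO (Kdm6b f/f with Emx1-Cre) at postnatal day 1 (P1), and both genotypes again at postnatal day 30 (P30), 24 libraries in all. The labels call these genotypes wild-type and Kdm6b-KO. Both genotypes carried the SUN1-GFP reporter on a C57BL/6 background, and the paper used it in both to mark progeny of Emx1+ cells. The paper's list of genotypes names Emx1-Cre for the cKO alone, while nuclei of the Emx1 lineage were sorted by GFP from both. Emx1-Cre acts in the dorsal telencephalon, so that its progeny include glutamatergic neurons, astrocytes and some oligodendrocytes. The deletion is therefore present in the whole Emx1 lineage and not in 1 cell type. Nothing in the labels says whether a library came from 1 animal, and p-values here measure the spread between libraries.

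Kdm6b encodes a demethylase that removes the repressive histone mark H3K27me3. In the developing pallium, Pax6 and Neurog2 act in progenitors, Eomes in intermediate progenitors, and the NeuroD factors follow as cells leave the cycle and become glutamatergic neurons. Neurod1, Neurod2 and Neurod6 bind E-boxes as dimers with E proteins. Bhlhe22 is a related repressor of postmitotic neurons that acts with Prdm8. NFI factors act in late progenitors, in neuron maturation and in the switch to astrocytes. Bcl11a shapes the identity of cortical projection neurons, and Mef2c acts in neuronal differentiation and in the activity-dependent control of synapse number. Mef2c is also known from microglia, endothelium and some interneurons.

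In mm9, by the GENCODE annotation, the E-box factors are compact genes. Neurod1 lies on chromosome 2 from 79292678 to 79296908 on the minus strand, with up to 3 exons. Neurod2 lies on chromosome 11 from 98186729 to 98190962 on the minus strand and Neurod6 on chromosome 6 from 55627812 to 55631257 on the minus strand, each with 1 annotated transcript of 2 exons. Bhlhe22, on chromosome 3 from 17954325 to 17957509 on the plus strand, has a single exon. The others are long genes with several transcripts. Bcl11a covers 96.1 kb of chromosome 11 from 23978056 to 24074123 (plus strand). Nfia covers 429 kb of chromosome 4 from 97439425 to 97868605 (plus strand), and Nfib 416 kb of the same chromosome from 81936077 to 82351654 (minus strand). Nfix covers 100 kb of chromosome 8 from 87223775 to 87324243 (minus strand), and Mef2c 164 kb of chromosome 13 from 83643033 to 83806684 (plus strand).

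The 250 bases before the annotated start are shown for 4 genes: the NeuroD genes, which encode E-box binding factors, and Mef2c, the gene with the widest difference between the genotypes. They are from RefSeq, build GRCm38.p6, and are written 5′ to 3′ on the strand of the gene, with each E-box (CANNTG, either strand) in capitals. Mef2c has 3 annotated starts in that table, and the most upstream one is shown.
Neurod1, chr2:79456637-79456886, minus strand: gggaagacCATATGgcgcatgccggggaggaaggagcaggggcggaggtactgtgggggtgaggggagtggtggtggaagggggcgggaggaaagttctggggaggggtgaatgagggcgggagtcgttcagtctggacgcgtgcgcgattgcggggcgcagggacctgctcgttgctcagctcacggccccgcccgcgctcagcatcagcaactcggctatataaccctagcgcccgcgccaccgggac
Neurod2, chr11:98329646-98329895, minus strand: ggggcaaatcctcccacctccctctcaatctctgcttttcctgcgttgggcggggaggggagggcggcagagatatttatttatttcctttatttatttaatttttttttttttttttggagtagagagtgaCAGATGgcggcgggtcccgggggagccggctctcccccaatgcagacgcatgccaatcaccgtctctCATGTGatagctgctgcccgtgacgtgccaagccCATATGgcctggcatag
Neurod6, chr6:55681264-55681513, minus strand: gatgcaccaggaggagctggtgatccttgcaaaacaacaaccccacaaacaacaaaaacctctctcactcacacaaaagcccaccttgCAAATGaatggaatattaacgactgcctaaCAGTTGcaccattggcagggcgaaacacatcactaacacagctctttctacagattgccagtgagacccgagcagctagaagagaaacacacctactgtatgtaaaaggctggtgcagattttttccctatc
Mef2c, chr13:83503784-83504033, plus strand: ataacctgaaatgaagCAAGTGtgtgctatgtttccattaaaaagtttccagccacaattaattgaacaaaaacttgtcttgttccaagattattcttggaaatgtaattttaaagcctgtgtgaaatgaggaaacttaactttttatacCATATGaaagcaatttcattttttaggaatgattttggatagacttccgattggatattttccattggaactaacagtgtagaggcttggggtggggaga

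The window of Neurod1 had a GC content of 67.6% with 22 CG dinucleotides, and that of Mef2c 33.6% with 1, against medians of 52.4% and 6 over all 32851 promoters of the table. Neurod2 stood at 52.8% with 11 and Neurod6 at 46% with 3. The number of E-boxes was 1 for Neurod1, 3 for Neurod2 and 2 each for Neurod6 and this start of Mef2c. Over the 7 genes with an entry (12 windows), 9 windows held a CANNTG, compared with 66.2% of all promoters. The form CAGATG, which is contained in CANNTG, was in 4 of the 12 windows and in 14.4% of all promoters. The NFI half-site TTGGC was in 5 windows and in 41.5% of all promoters. The MEF2 core CTANNNNTAG was in 0 of the 12 windows and in 3.2% of all promoters. Both strands were searched throughout. Such matches describe the letters only and do not show binding.

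An FPKM value gives the fragments of a gene per kilobase of its transcript, relative to all fragments mapped in the library. The effective depth, read from the smallest steps in the values and assuming fragments of 200 bases, ranged from 807000 to 3890000 reads in WT at P1 and from 190000 to 2840000 in Kdm6b-cKO. The P30 libraries were deeper, with 5120000 to 8310000 reads in WT and 1940000 to 8050000 in Kdm6b-cKO. At P1, 4 WT libraries (numbers 2, 3, 4 and 5) and Kdm6b-cKO library 5 had more than 100 olfactory receptor genes above 0, and Kdm6b-cKO libraries 0 and 1 held over 1000 FPKM of the precursor of ribosomal RNA (45S). That precursor exceeded 1000 FPKM in 8 P30 libraries (5 WT, 3 Kdm6b-cKO) and stayed below in 4 (WT library 0, Kdm6b-cKO libraries 0, 1 and 5). Kdm6b itself, counted over the whole gene, ranged from 24.9 to 51.0 FPKM in WT, against 15.0 to 38.4 FPKM in Kdm6b-cKO at P1, and from 16.9 to 26.4 and from 17.5 to 28.1 FPKM at P30. These ranges overlap, so Kdm6b does not check the labels, and the genotypes are those of the column names. Among the defining markers of glutamatergic neurons, Slc17a7 ranged from 131 to 198 FPKM in WT at P30 and from 76.5 to 216 FPKM in Kdm6b-cKO. At P1 it was lower, at 5.65 to 13.6 FPKM in WT and 1.28 to 6.55 FPKM in Kdm6b-cKO (log2 fold change -1.76, limma adjusted p = 0.180, not called). None of the 8 genes of that list was at 0 throughout a group.

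At P1, Neurod6 was the most abundant of the 9 genes in both genotypes. Its mean of 340 ± 96.4 FPKM (SD, n = 6) in WT lay above Mef2c in all 6 WT libraries, with no overlap of their ranges. Mef2c came next in WT at 139 ± 22.2 FPKM (SD, n = 6), then Bcl11a at 107 ± 21.9 FPKM (SD, n = 6), and these neighbours overlapped. Nfix and Nfib followed at 68.3 ± 7.62 and 65.5 ± 12.9 FPKM (SD, n = 6 each) and could not be ordered, since Nfix was the higher in 2 of 6 libraries. Neurod2 (43.9 FPKM), Nfia (37.4 FPKM), Neurod1 (20.7 FPKM) and Bhlhe22 (17.8 FPKM) closed the order in WT means, each overlapping the next. In Kdm6b-cKO, Mef2c stood in place 5 instead of 2, and each of the other genes kept its place or moved by 1 or 2 places.

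**Figure D1:**
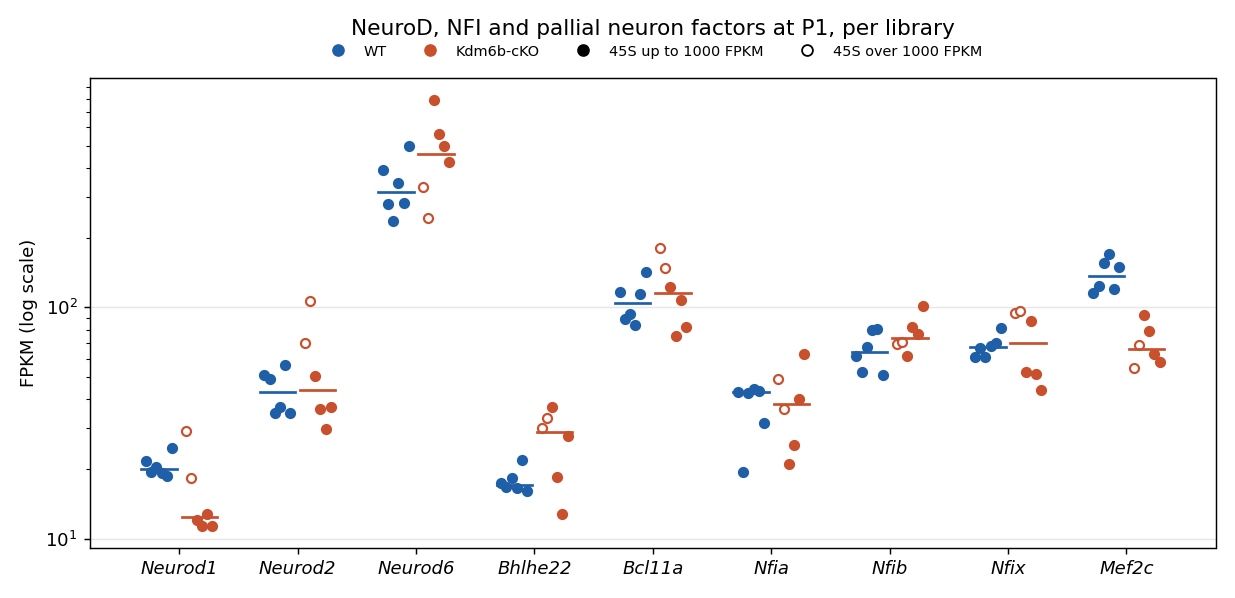
FPKM of the 9 genes at P1 on a log axis, 1 point per library, with WT in blue and Kdm6b-cKO in orange. Horizontal lines are group medians and open points the 2 Kdm6b-cKO libraries over 1000 FPKM of 45S. The Mef2c points of Kdm6b-cKO, 54.4 to 93.1 FPKM, lie wholly below those of WT, 115 to 170 FPKM, while the other 8 genes overlap.

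Mef2c was the gene among the 9 whose genotypes did not overlap at P1. The 6 WT libraries held 115, 124, 156, 170, 120 and 150 FPKM (numbers 0 to 5) and the 6 Kdm6b-cKO libraries 54.4, 69.0, 93.1, 78.7, 62.7 and 58.1 FPKM. Every Kdm6b-cKO library thus lay below every WT library. The log2 fold change was -1.01 (standard error 0.20, 95% confidence interval -1.45 to -0.58). In limma its adjusted p over all 16250 genes tested was 0.160 (unadjusted p = 0.000166), so Mef2c did not pass the threshold. By unadjusted p it took place 15 of all genes tested. Tested alone, Mef2c differed by more than its libraries vary within a genotype (p = 0.00216 by two-sided exact permutation of 924 arrangements, the lowest the design allows). The same test was run for each of the 9 genes at both ages, 18 tests in all, and gave an unadjusted p under 0.05 also for Neurod1 at P1 and Nfib at P30. The share of all tested genes in which every Kdm6b-cKO library lay below every WT library was 0.683%, and in the other direction 0.603%.

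Across all genes, limma called 0 at P1 at an adjusted p under 0.05 and more than 2-fold, which is 0% of those tested. At an unadjusted p under 0.05, 2352 genes or 14.5% differed, and 1 of the 9 factors was among them, Mef2c. Over all genes the median log2 fold change was -0.25, so that a gene at 0 on this scale lay above the median gene. By this measure Mef2c was lower than the median gene as well.

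The P1 libraries were also compared by their olfactory receptor signal, which is unevenly spread over the genotypes. In the 7 libraries with 100 or fewer receptor genes above 0, the mean of Mef2c was 120 FPKM in 2 WT against 71.6 FPKM in 5 Kdm6b-cKO libraries, a log2 difference of -0.76 (exact permutation test, two-sided p = 0.0476, the smallest possible). Since the genotypes do not overlap over all P1 libraries, this p was fixed in advance and adds nothing to the test over all of them. In the other 5 libraries the mean of Mef2c was 149 FPKM in 4 WT libraries against 58.1 FPKM in 1 Kdm6b-cKO library, the shallowest of all, so no test is given there. The part of this signal in the Mef2c difference was not tested. Without the 2 Kdm6b-cKO libraries over 1000 FPKM of 45S it was -0.94 (limma, adjusted p = 0.0792). With each library weighted by its effective depth, a choice made after the depths were seen, the log2 fold change was -0.83 and the adjusted p from limma 0.0393, without reaching 2-fold. Over the 13 alternative settings other than leaving out a single library, the adjusted p ranged from 0.0393 to 0.331.

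Markers of other cell types that carry Mef2c were measured beside it, although a sort for nuclei of the Emx1 lineage should remove microglia, endothelium and GABAergic interneurons. At P1 the 8 microglial markers summed to 57.4 to 117 FPKM in WT, against 26.6 to 118 FPKM in Kdm6b-cKO, and 0 of these genes were at 0 throughout a group. The 6 endothelial markers summed to 87.7 to 148 FPKM in WT against 56.7 to 149 FPKM in Kdm6b-cKO. The 10 GABAergic markers summed to 456 to 884 FPKM in WT against 593 to 1530 FPKM in Kdm6b-cKO. All 3 sums overlapped between the genotypes. Gene by gene, 7 of 8 microglial markers were lower in Kdm6b-cKO and 1 higher (median log2 fold change -0.87, beside -0.25 over all genes). Of 9 tested GABAergic markers, 6 were lower and 3 higher (median -0.35), and endothelial markers were split 3 and 3 (median -0.05). Of these markers 0 were called. Sst, a large part of the GABAergic sum, averaged 507 FPKM for WT against 771 FPKM for Kdm6b-cKO, and the genotypes overlapped. The part of these markers in the Mef2c difference was not tested. In sorted nuclei counted in bulk, fewer cells of a type and less RNA per cell cannot be told apart.

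Mef2a and Mef2d, which bind the same motif as Mef2c, were measured in the same libraries. Mef2d ranged from 13.3 to 14.1 FPKM in WT, against 4.17 to 10.7 FPKM in Kdm6b-cKO at P1, again without overlap. Its log2 fold change was -0.77 (standard error 0.27, limma adjusted p = 0.224), which did not pass. Mef2a ranged from 8.54 to 15.7 FPKM in WT, against 5.46 to 11.0 FPKM in Kdm6b-cKO, with a log2 fold change of -0.51 (standard error 0.27, limma adjusted p = 0.395), and the groups overlapped. Of the 7 genes in the list of Mef2 paralogues and class IIa histone deacetylases, which bind and repress MEF2 factors, 5 were lower and 2 higher at P1, 0 passed, and the median log2 fold change was -0.13 beside -0.25 over all genes.

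**Figure D2:**
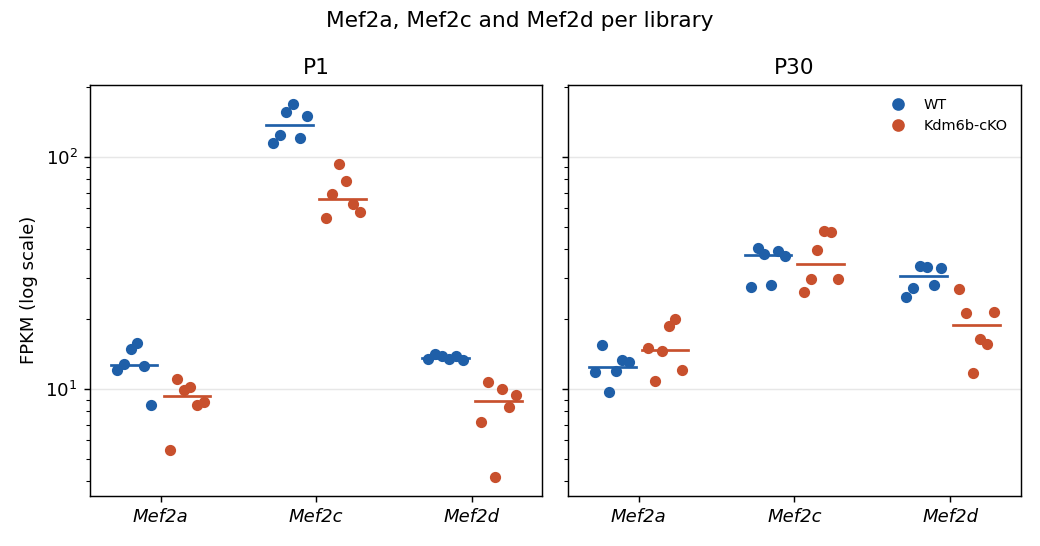
FPKM of Mef2a, Mef2c and Mef2d at P1 and P30 on a shared log axis, 1 point per library, WT in blue and Kdm6b-cKO in orange, with lines at group medians. At P1 the genotypes do not overlap for Mef2c (115 to 170 against 54.4 to 93.1 FPKM) or Mef2d (13.3 to 14.1 against 4.17 to 10.7 FPKM), and at P30 Mef2c overlaps while 5 of the 6 Kdm6b-cKO values of Mef2d lie below all WT values.

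Among the NeuroD factors at P1, no gene passed and all overlapped. Neurod1, which acts early in the commitment of neurons, had a median of 19.9 FPKM in WT (18.6 to 24.6) and 12.4 FPKM in Kdm6b-cKO (11.3 to 29.2). All Kdm6b-cKO libraries but number 0 lay below the lowest WT library, and number 0 lay above the highest. The log2 fold change was -0.47 (standard error 0.27, limma adjusted p = 0.431), and the exact permutation test of Neurod1 alone gave p = 0.0498. Without Kdm6b-cKO libraries 0 and 1, the 2 with high 45S, the log2 fold change was -0.79 (limma adjusted p = 0.0826). The counts behind these values were low, with about 5 reads in the shallowest Kdm6b-cKO library and up to 192 in a WT library.

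Neurod2, a factor of maturing excitatory neurons, had a median of 43.1 FPKM in WT (34.8 to 56.3) and 43.9 FPKM in Kdm6b-cKO (29.6 to 107). Its highest values were in Kdm6b-cKO libraries 0 and 1, at 70.4 and 107 FPKM. Neurod6, a marker of postmitotic pallial neurons, had a median of 314 FPKM in WT (236 to 500) and 462 FPKM in Kdm6b-cKO (245 to 791), and here libraries 0 and 1 were the lowest Kdm6b-cKO libraries, at 331 and 245 FPKM. The log2 fold changes were 0.21 for Neurod2 (95% confidence interval -0.43 to 0.85) and 0.43 for Neurod6 (95% confidence interval -0.22 to 1.08). Neither passed in limma (adjusted p = 0.756 and 0.529), and the signs turned under quantile normalization for Neurod6 (-0.20) and without libraries 0 and 1 for Neurod2 (-0.19).

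Bhlhe22 had a median of 17.0 FPKM in WT (16.1 to 21.9) and 29.0 FPKM in Kdm6b-cKO (12.8 to 37.1) at P1. In 4 Kdm6b-cKO libraries it lay above all WT libraries, in number 4 it lay below them, and the log2 fold change was 0.50 (standard error 0.27, limma adjusted p = 0.416). Bcl11a had a median of 104 FPKM in WT (83.7 to 142) and 115 FPKM in Kdm6b-cKO (75.1 to 180), with the highest values in Kdm6b-cKO libraries 0 and 1. Its log2 fold change was 0.12 (95% confidence interval -0.41 to 0.65), which excludes a 2-fold difference in either direction.

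The NFI genes lay close to each other between the genotypes at P1. Nfia had a median of 42.8 FPKM in WT (19.4 to 44.5) and 38.3 FPKM in Kdm6b-cKO (21.1 to 62.6). Nfib had a median of 64.3 FPKM in WT (51.1 to 80.7) and 73.8 FPKM in Kdm6b-cKO (61.3 to 102). Nfix had a median of 67.5 FPKM in WT (61.2 to 81.8) and 70.0 FPKM in Kdm6b-cKO (43.9 to 96.7), where 3 libraries lay above and 3 below all WT libraries. The log2 fold changes were 0.02, 0.24 and -0.01, with 95% confidence intervals of -0.62 to 0.66, -0.20 to 0.67 and -0.52 to 0.51. Each interval includes 0 and excludes a 2-fold difference.

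Genes upstream of the NeuroD factors and their partners were given as lists. Of the 10 genes of the proneural and NeuroD cascade, 9 were tested at P1, 0 passed, 3 were lower and 6 higher. The median log2 fold change was 0.27, beside -0.25 over all genes. In limma 3 of them had an unadjusted p under 0.05, all higher in Kdm6b-cKO, beside 14.5% of all genes. In 1 gene of this list every Kdm6b-cKO library lay above every WT library, beside 0.603% of all genes. Neurog2 ranged from 0.758 to 3.01 FPKM in WT, against 0.866 to 10.1 FPKM in Kdm6b-cKO, with a log2 fold change of 0.91 (limma adjusted p = 0.494). Eomes ranged from 1.33 to 4.56 FPKM in WT, against 3.00 to 9.25 FPKM in Kdm6b-cKO, with a log2 fold change of 1.01 (limma adjusted p = 0.311). Neurod4 was listed at 0 in 1 WT and 3 Kdm6b-cKO libraries and reached at most 3.29 FPKM. These progenitor genes were thus low in all P1 libraries beside Neurod6.

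Of the 11 genes of the NFI and Sox9 glial list, 8 were lower and 3 higher at P1, 0 passed, and the median was -0.51. Nfic, the remaining NFI gene, ranged from 8.24 to 10.4 FPKM in WT, against 3.31 to 12.8 FPKM in Kdm6b-cKO (log2 fold change -0.18, limma adjusted p = 0.816). Of the 5 partners and paralogues of Bcl11a and Bhlhe22, 2 were lower and 3 higher, 0 passed, and the median was 0.02. Bcl11b, the paralogue of Bcl11a that marks corticofugal neurons, ranged from 28.7 to 46.3 FPKM in WT, against 22.3 to 70.7 FPKM in Kdm6b-cKO. Prdm8, the partner of Bhlhe22, ranged from 4.43 to 5.86 FPKM in WT, against 2.70 to 15.0 FPKM in Kdm6b-cKO. Bhlhe23 was listed at 0 in 2 WT and 4 Kdm6b-cKO libraries.

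At P30, none of the 9 genes differed between the genotypes in limma, whether by adjusted p or by an unadjusted p under 0.05. Over 13289 genes, 37 or 0.278% were called and 1689 or 12.7% had an unadjusted p under 0.05. The order of the WT means was now led by Neurod2 at 64.3 ± 23.3 FPKM (SD, n = 6), followed by Bcl11a at 39.7 ± 5.93 FPKM and Mef2c at 35.2 ± 5.83 FPKM (SD, n = 6 each). Nfix stood at 25.7, Neurod6 at 20.5, Nfib at 10.4, Neurod1 at 7.69, Nfia at 5.27 and Bhlhe22 at 1.12 FPKM. Neurod6 lay above Nfib, and Nfia above Bhlhe22, without overlap, and the other neighbours overlapped.

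**Figure D3:**
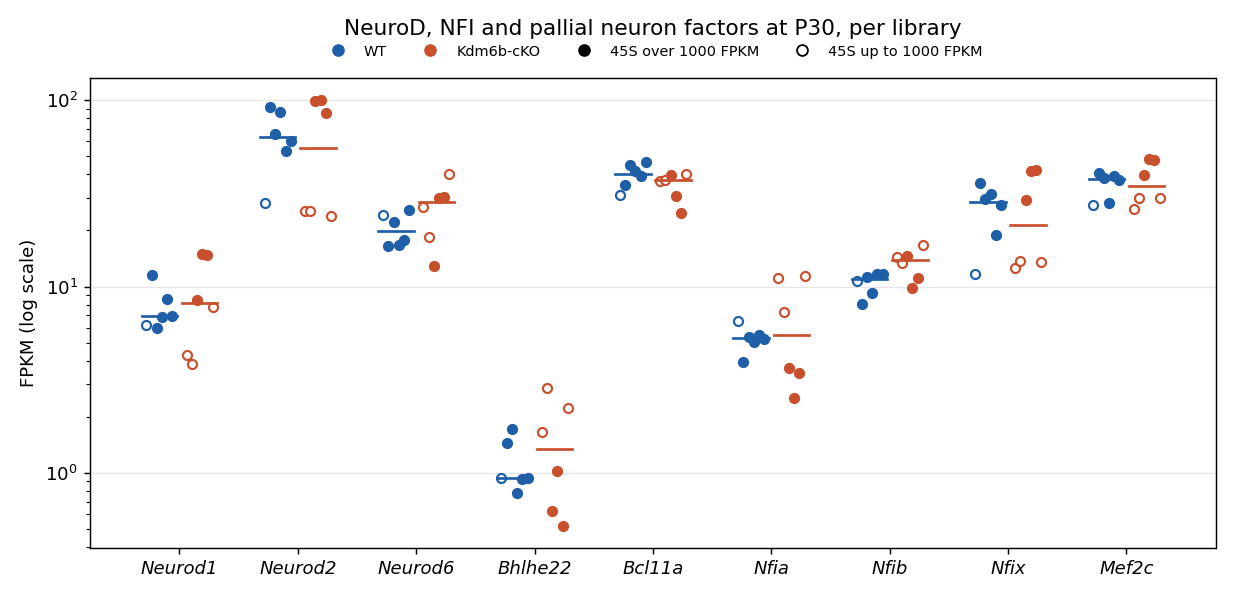
FPKM of the 9 genes at P30 on a log axis, 1 point per library, WT in blue and Kdm6b-cKO in orange, lines at group medians, with open points for the 4 libraries under 1000 FPKM of 45S. The genotypes overlap for every gene, and the open points of Neurod2 (24.0 to 28.1 FPKM) and Nfix (11.6 to 13.7 FPKM) lie below all filled points, those of Nfia (6.51 to 11.4 FPKM) above them.

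Mef2c at P30 had a median of 37.9 FPKM in WT (27.5 to 40.4) and 34.7 FPKM in Kdm6b-cKO (26.2 to 48.1). Over all 12 libraries the log2 fold change was 0.04 (95% confidence interval -0.36 to 0.45). This interval excludes a difference of the size seen at P1. Mef2c averaged 39.8 FPKM in the 8 libraries over 1000 FPKM of 45S and 28.3 FPKM in the other 4, with overlap. Within the 8, its log2 difference between the genotypes was 0.30 (means 36.7 for WT against 45.1 FPKM, exact permutation test, two-sided p = 0.0536). In the other 4, where WT is 1 library and no test is given, it was 0.05. Mef2a was at a log2 fold change of 0.25 (limma adjusted p = 0.602). Mef2d had a median of 30.6 FPKM in WT (24.8 to 33.8) and 18.8 FPKM in Kdm6b-cKO (11.7 to 27.0), a log2 fold change of -0.71 (standard error 0.19, limma adjusted p = 0.146) that did not pass. Among the 8 libraries over 1000 FPKM of 45S, the log2 difference of Mef2d was -1.10 (5 WT libraries against 3, two-sided p = 0.0179 by exact permutation, the lowest the design allows), and in the other 4 libraries the single WT library held 24.8 FPKM beside a mean of 23.2 FPKM in 3 Kdm6b-cKO libraries, with no test.

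Neurod2, Nfix and Nfia separated at P30 by the 45S level, in both genotypes. Neurod2 was at 24.0 to 28.1 FPKM in the 4 libraries under 1000 FPKM of 45S and at 53.1 to 100 FPKM in the other 8, so that no values overlapped. Nfix was at 11.6 to 13.7 FPKM in the former and 18.8 to 42.3 FPKM in the latter. Nfia went the other way, with 6.51 to 11.4 FPKM in the former and 2.53 to 5.51 FPKM in the latter. Of all tested genes, 8.77% lay wholly higher in the 8 libraries with more 45S, and 2 of the 9 factors were among them. Likewise 6.13% lay wholly lower there, and 1 of the 9 was among them. At P30, Neurod2 and Nfix were thus higher, and Nfia lower, in the libraries with more 45S.

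The 4 libraries with less 45S were 1 WT and 3 Kdm6b-cKO, so the 45S level is unevenly spread over the genotypes. Their GABAergic markers summed to 221 to 392 FPKM against 32.7 to 289 FPKM in the other 8, and their glutamatergic markers to 201 to 271 FPKM against 373 to 605 FPKM, with no overlap for the latter. Between genotypes, the GABAergic sum ranged from 32.7 to 392 FPKM in WT, against 145 to 320 FPKM in Kdm6b-cKO, and the oligodendrocyte sum over 6 markers from 243 to 447 and from 125 to 173 FPKM. Gene by gene, all 7 tested GABAergic markers were higher in Kdm6b-cKO (median log2 fold change 1.58, beside -0.05 over all genes). Of these, 5 had an unadjusted p under 0.05 in limma, beside 12.7% of all genes, and 0 were called. Among these marker lists 4 genes were called, all lower in Kdm6b-cKO. Slc17a6, a vesicular glutamate transporter gene, was at 1.95 to 3.02 FPKM in WT and at most 0.923 FPKM in Kdm6b-cKO (log2 fold change -2.98, limma adjusted p = 0.0408). The oligodendrocyte genes Mag, Mbp and Sox10 were the others (log2 fold changes -1.59, -1.27 and -1.46, limma adjusted p = 0.00538, 0.0204 and 0.0204). The part of these markers in the values of the 9 factors was not tested.

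Within the 8 libraries with more 45S, the log2 difference between the genotypes was 0.43 for Neurod2, with means of 71.5 FPKM in 5 WT against 94.6 FPKM in 3 Kdm6b-cKO libraries (exact permutation test, two-sided p = 0.0893). Over all 12 libraries it was -0.31 (95% confidence interval -1.25 to 0.64), the opposite sign. Neurod1 had a log2 difference of 0.66 within these 8 libraries (exact permutation test, p = 0.0714), beside 0.08 over all. Nfix had one of 0.41 (exact permutation test, p = 0.179), beside -0.12 over all. For Nfia it was -0.63 within the 8 libraries, with means of 5.02 and 3.22 FPKM and no overlap (exact permutation test, p = 0.0179, the smallest possible), beside 0.10 over all. For Bhlhe22 it was -0.61 and for Bcl11a -0.41 (exact permutation tests, p = 0.143 and 0.0536), beside 0.19 and -0.20 over all. In the other 4 libraries, where WT is 1 library and no test is given, the log2 difference was 0.57 for Nfia, 1.15 for Bhlhe22, 0.30 for Bcl11a, -0.17 for Neurod2 and -0.29 for Neurod1, each opposite in sign to that in the 8, and 0.19 for Nfix, of the same sign. The 8 libraries still differ in 45S between the genotypes, with 1629 to 4027 FPKM in WT and 3034, 15420 and 25878 FPKM in Kdm6b-cKO. With the 45S level as a term of the fit over all 12 libraries, Nfia had a log2 fold change of -0.29 (limma adjusted p = 0.446) and did not pass.

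Of the genes that did not separate by 45S, none differed in limma at P30. Neurod6 had a median of 20.0 FPKM in WT (16.5 to 25.9) and 28.3 FPKM in Kdm6b-cKO (12.9 to 40.0), a log2 fold change of 0.29 (limma adjusted p = 0.679). Nfib had a median of 11.0 FPKM in WT (8.06 to 11.7) and 13.9 FPKM in Kdm6b-cKO (9.83 to 16.7), where 4 libraries lay above all WT libraries. Its log2 fold change of 0.34 had a 95% confidence interval of -0.02 to 0.70 and an adjusted p of 0.423 in limma, and the exact permutation test of Nfib alone gave p = 0.0411. Bcl11a had a median of 40.3 FPKM in WT (30.9 to 46.4) and 37.1 FPKM in Kdm6b-cKO (24.7 to 39.9), a log2 fold change of -0.20 (limma adjusted p = 0.658). Bhlhe22 had a median of 0.938 FPKM in WT (0.782 to 1.72) and 1.34 FPKM in Kdm6b-cKO (0.517 to 2.86), values that stood for about 12 to 31 and 3 to 69 reads per library. Its log2 fold change of 0.19 had a 95% confidence interval of -0.77 to 1.15, and a 2-fold higher level lies within that interval. Medians of Neurod1 were 6.93 FPKM in WT (6.00 to 11.5) and 8.12 FPKM in Kdm6b-cKO (3.83 to 15.0).

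Across all genes at P30, every Kdm6b-cKO library lay below every WT library in 1.05% and above in 0.888%, and 0 of the 9 factors were among either. The lists around the factors held 0 called genes at P30. Of the 5 tested genes of the proneural and NeuroD cascade, 2 were lower and 3 higher (median 0.22), and Eomes was listed at 0 in all 12 libraries. Neurog2 reached at most 1.15 FPKM and Neurod4 1.57 FPKM. Of the 6 tested genes of the Mef2 and deacetylase list, 3 were lower and 3 higher (median -0.01). Of 10 tested genes of the NFI and Sox9 glial list, 7 were lower and 3 higher (median -0.08), and of 4 tested partners of Bcl11a and Bhlhe22, 2 were lower and 2 higher (median -0.01), beside a median of -0.05 over all genes. Nfic, Bcl11b and Prdm8 were all lower in each of the 4 libraries with less 45S (8.95 to 11.5, 5.79 to 7.33 and 2.16 to 3.21 FPKM) than in any of the other 8 (17.0 to 29.0, 7.78 to 12.3 and 3.42 to 12.9 FPKM). Bhlhe23 was listed at 0 in 5 of the 6 WT and 4 of the 6 Kdm6b-cKO libraries.

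**Figure D4:**
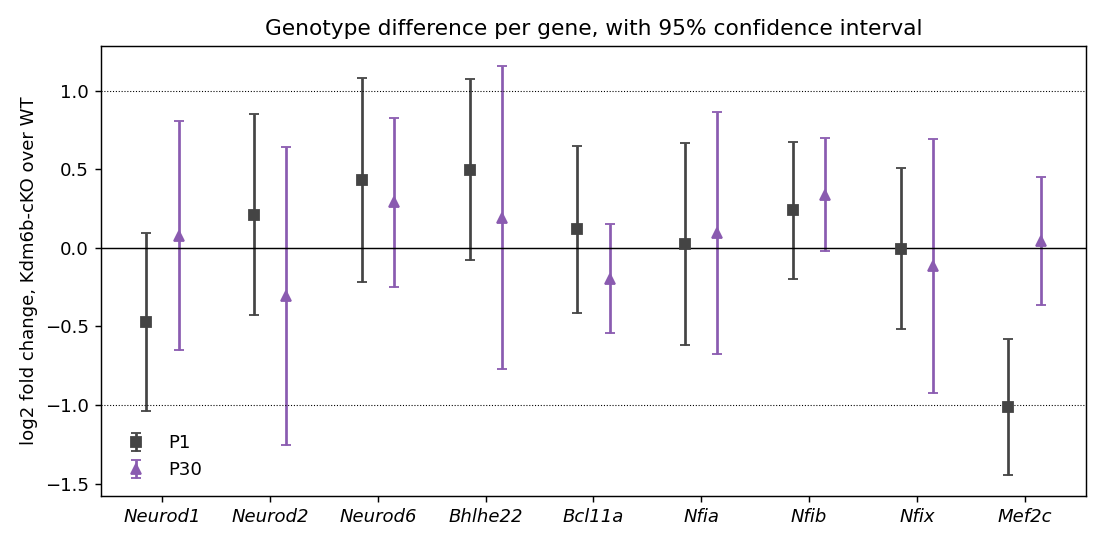
Log2 fold change of Kdm6b-cKO over WT for each gene at P1 (squares) and P30 (triangles), with 95% confidence intervals from limma and dotted lines at a 2-fold difference. The intervals of all genes include 0 except that of Mef2c at P1, -1.45 to -0.58.

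Whether the genotype difference itself changed with age was tested in 12644 genes over the 24 libraries, as the difference at P30 less that at P1. For Mef2c this log2 value was 1.06 (standard error 0.27, 95% confidence interval 0.50 to 1.61). Its unadjusted p was 0.000593 and its adjusted p from limma 0.117, place 63 of all genes by unadjusted p, so it did not pass. In 1 gene or 0.00791% the adjusted p was under 0.05, and in 13.2% of genes the unadjusted p was under 0.05, with Mef2c alone among the 9. Under quantile normalization the Mef2c value was 1.45 and passed (limma adjusted p = 0.0374). For the other 8 factors the value lay between -0.52 (Neurod2) and 0.55 (Neurod1), each with an interval that includes 0. For Mef2a it was 0.76 (limma adjusted p = 0.277), and for Mef2d 0.06 (limma adjusted p = 0.949).

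The FPKM of the ages came from separate tables, so the ages were compared by rank. In each library the 12644 genes that averaged 1 FPKM or more at both ages were ranked, and the rank was given as a percentile from 0 to 100. In WT all 9 factors changed rank with age, 8 downward and Neurod2 upward. Over all ranked genes, 34.7% were lower and 35% higher at P30 at an adjusted p under 0.05 in limma, so a change of rank with age was frequent. Beside this background, 8 of 9 lower is a larger share, and no test of that share was made.

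**Figure D5:**
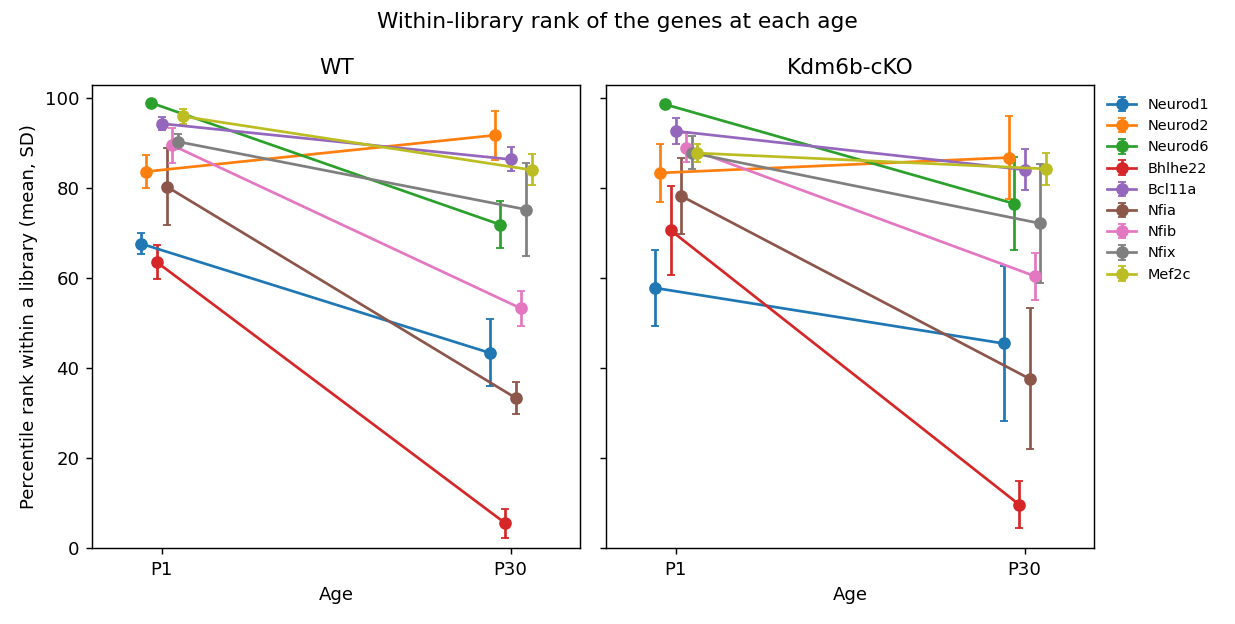
Mean percentile rank of each gene within a library at P1 and P30, with bars for the SD over 6 libraries, for WT on the left and Kdm6b-cKO on the right (0 is the lowest and 100 the highest expressed of 12644 genes). Bhlhe22 drops from 63.6 to 5.54 in WT and from 70.7 to 9.66 in Kdm6b-cKO, while Neurod2 stays above 80 on average in both genotypes.

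The steepest drop was that of Bhlhe22, from 63.6 ± 3.78 at P1 to 5.54 ± 3.29 at P30 in WT (percentiles, SD, n = 6 each; limma adjusted p = 1.38e-09). Its WT mean at P30, 1.12 FPKM, is close to the limit of 1 FPKM for ranked genes. The size of its drop thus depends on the genes ranked, and the change ranged from -58.1 to -32.2 over the other settings that ranked it. Neurod6 fell from 99.0 ± 0.426 to 71.9 ± 5.24 (limma adjusted p = 1.11e-10) and Neurod1 from 67.7 ± 2.36 to 43.4 ± 7.46 (limma adjusted p = 1.07e-05). Neurod2 rose from 83.7 ± 3.57 to 91.8 ± 5.42 (limma adjusted p = 0.00279), although its ranges overlapped, because WT library 0 at P30 stood at 81.1. That library was the only WT library at P30 under 1000 FPKM of 45S. All WT libraries at P1 were under that level, at 259 to 476 FPKM. Kdm6b-cKO libraries 0, 1 and 5 at P30, also under it, ranked Neurod2 at 77.9 to 79.2, beside 78.3 to 89.0 in WT at P1. The part of the 45S level in the rise of Neurod2 was not tested. In WT means the 3 NeuroD factors did not share a direction between the ages.

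The NFI genes all fell in rank in WT. Nfia fell from 80.3 ± 8.56 to 33.4 ± 3.52 (limma adjusted p = 4.08e-08), Nfib from 89.6 ± 3.94 to 53.3 ± 3.97 (limma adjusted p = 1.52e-08) and Nfix from 90.4 ± 1.72 to 75.3 ± 10.3 (limma adjusted p = 0.000237). Their paralogue Nfic went the other way, from 43.6 to 72.6 (limma adjusted p = 3.77e-06). Bcl11a fell from 94.4 ± 1.43 to 86.4 ± 2.67 (limma adjusted p = 2.43e-05), and Bcl11b from 80.9 to 50.9 (limma adjusted p = 2.48e-06). Mef2c fell from 96.0 ± 1.59 to 84.1 ± 3.46 (limma adjusted p = 1.90e-06), while Mef2d rose from 55.8 to 81.1 (limma adjusted p = 4.04e-08) and Mef2a, from 53.5 to 58.5, did not pass (limma adjusted p = 0.205). In all 8 factors that fell in WT, every P30 library ranked below every P1 library. The share of all ranked genes that separate in this way was not computed. By limma, 34.7% of them ranked lower at P30, so the separation is not read as particular to these factors.

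In Kdm6b-cKO, 6 of the 9 factors fell in rank and none rose, beside 24% of all ranked genes lower and 24.7% higher. Bhlhe22 fell from 70.7 ± 9.84 to 9.66 ± 5.17, Nfia from 78.3 ± 8.55 to 37.6 ± 15.7, Nfib from 89.1 ± 3.27 to 60.5 ± 5.24 and Neurod6 from 98.7 ± 0.782 to 76.6 ± 10.3 (limma adjusted p = 9.54e-07, 0.000270, 1.35e-05 and 3.18e-06). Nfix and Bcl11a fell by smaller amounts, from 87.9 to 72.2 (limma adjusted p = 0.0172) and from 92.7 to 84.1 (limma adjusted p = 0.00621), and without the 2 P1 libraries over 1000 FPKM of 45S the fall of Nfix no longer passed (adjusted p = 0.0688). Mef2c, at 87.9 ± 2.09 and 84.4 ± 3.51, did not pass (limma adjusted p = 0.243), nor did Neurod1 at 57.9 and 45.5 (adjusted p = 0.181) or Neurod2 at 83.4 and 86.9 (adjusted p = 0.392). The Kdm6b-cKO libraries of Mef2c at P1 ranked between 83.9 and 89.95, below all WT libraries at 94.1 to 98.0, whereas at P30 the genotypes overlapped, at 78.8 to 87.1 in WT and 79.8 to 88.9 in Kdm6b-cKO.

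Cell type markers also differed between the ages, including those of endothelium and GABAergic interneurons, which the sort should remove. In WT the summed endothelial markers went from 87.7 to 148 FPKM at P1 to 1.00 to 9.74 FPKM at P30, the GABAergic markers from 456 to 884 to 32.7 to 392 FPKM, and the oligodendrocyte markers from 24.4 to 36.7 to 243 to 447 FPKM. The summed glutamatergic markers went from 174 to 199 to 271 to 533 FPKM. The tables were scaled separately, so these sums are set side by side only, and their part in the changes of rank was not tested.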

How the data were processed

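RNA from sorted SUN1-GFP+ cortical nuclei was analysed in 24 libraries. Per the labels and the study's methods, the authors aligned reads to mm9 with HISAT2 and used Cuffdiff to compute FPKM values, which they deposited as 1 table per age. The authors' own comparison tables (fold changes, test statistics, p and q values) were not used. Column numbers 0 to 5 are not the replicate numbers of the sample titles.

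The genotypes were compared with limma 3.58.1 in R 4.3.3 (two-sided, with an intensity trend) after adding 0.1 to each FPKM and taking log2, over the genes that averaged 1 FPKM or more in an age's 12 libraries. A fold change on this scale understates that of low genes. P-values were Benjamini-Hochberg adjusted over all genes tested, and genes under 0.05 with more than a 2-fold difference were called. Ages were compared with limma on normal scores of within-library ranks, called at an adjusted p under 0.05. Single genes were tested by exact two-sided permutation of the mean log2 values (18 tests over the 9 genes and both ages). Libraries were split by technical signal, at 100 olfactory receptor genes above 0 at P1 and at 1000 FPKM of 45S at P30, thresholds chosen after the values were seen.

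The 9 genes, the gene lists, the tests and the rule for naming genes were chosen with earlier results of these data known. The rule names all 9 genes, 9 relatives of them, any other list gene that was called, and the 3 genes with the profile most like each factor. Slc17a7 and Kdm6b were named as checks, and Sst as a large part of the GABAergic sum. Effective depths were read from steps of 1 read and assume fragments of 200 bases. The fits were tested on simulated data. Alternatives were pseudocounts, filters, scalings, variance models, library weights, technical terms, a replicate block and leaving out each library. Values and figures were made in Python 3.11.15 (pandas 2.3.3, numpy 2.4.6, matplotlib 3.10.9).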

Additional observations from a re-analysis of the deposited data

Results flagged for a closer look

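Among the 36 groups of 6 libraries tested (9 genes, 2 ages, 2 genotypes), 1 held a library that stood apart by Dixon's criterion. Bhlhe22 in WT at P1 was 21.9 FPKM in library 4, and the next library was at 18.3 FPKM, a gap of 0.626 of the whole range and just past the critical value for 6 libraries. Chance alone flags about 5% of groups.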

How the results depend on the processing

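The number of the 9 factors called changed under 4 settings. In rank with age, 5 instead of 6 factors were called in Kdm6b-cKO without its 2 P1 libraries high in 45S (Nfix no longer passed), and ranking only genes of at least 5 FPKM gave 8 in WT and 5 in Kdm6b-cKO, since Bhlhe22 was not ranked there. Weights estimated by limma for each library called 1 factor at P30, Neurod2 (log2 fold change -1.07, adjusted p = 0.0197), and quantile normalization called 1 factor in the test of genotype by age, Mef2c (1.45, adjusted p = 0.0374). Leaving out each library in turn changed no call on the 9 factors. Mef2c at P1 stayed negative throughout, from -1.43 to -0.83 over the other settings and from -1.10 to -0.95 with 1 library left out (adjusted p 0.0613 to 0.413). The cause of the changes below was not tested, and no reversed value passed.

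At P1 the sign reversed under quantile normalization for Neurod6 (-0.20), Bcl11a (-0.27), Nfia (-0.15) and Nfib (-0.079), under limma's library weights for Neurod2 (-0.062) and Nfia (-0.17), under weights by depth for Neurod2 (-0.052) and Nfia (-0.13), and without the 2 Kdm6b-cKO libraries high in 45S for Neurod2 (-0.19), Bcl11a (-0.14) and Nfia (-0.078). At P30 it reversed under limma's library weights for Neurod1 (-0.48) and Mef2c (-0.30), with the 45S term for Neurod2 (0.26), Bhlhe22 (-0.11), Nfia (-0.29) and Nfix (0.35), and under weights by depth for Neurod1 (-0.29) and Mef2c (-0.11). The difference of the genotype effect between ages reversed under quantile normalization for Neurod6 (0.53), Bhlhe22 (0.20), Bcl11a (0.10) and Nfix (0.14), under limma's library weights for Bhlhe22 (0.67) and without the 2 libraries high in 45S for Nfix (0.14).

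With 1 library left out, these uncalled differences between the genotypes moved by over 1.5 times without changing sign: Neurod6 at P1 (0.26 without Kdm6b-cKO library 2), Nfib at P1 (0.15 without Kdm6b-cKO library 5), Neurod2 at P30 (from -0.52 without WT library 0 to -0.10 without Kdm6b-cKO library 5), Neurod6 at P30 (0.15 without Kdm6b-cKO library 5 and 0.48 without library 2) and Bcl11a at P30 (-0.10 without Kdm6b-cKO library 4). So did the difference between ages for Neurod1, Neurod2, Bhlhe22, Bcl11a and Nfib. The values that changed sign ranged at P1 from -0.010 to 0.36 for Neurod2, -0.016 to 0.24 for Bcl11a, -0.15 to 0.18 for Nfia and -0.11 to 0.12 for Nfix. At P30 they ranged from -0.11 to 0.28 for Neurod1, -0.034 to 0.42 for Bhlhe22, -0.11 to 0.32 for Nfia, -0.33 to 0.046 for Nfix and -0.042 to 0.13 for Mef2c, and between ages from -0.31 to 0.046 for Neurod6, -0.13 to 0.29 for Nfia and -0.32 to 0.053 for Nfix.

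Library numbers did not pair the samples: same-numbered libraries of the genotypes had correlations of their deviations from -0.18 to 0.23 at P1 and from -0.30 to 0.33 at P30, over 0.1 in 1 and 2 of 6 pairs. With the number as a replicate block, 0 factors were called at P1 (Mef2c adjusted p = 0.331), 0 at P30 and 0 between ages, 9 changed rank in WT and 6 in Kdm6b-cKO, and 0 of all genes were called at P30, against 37 without it. The count of all genes called varied more than that of the factors. At P1 it was 0, but 27 lower and 24 higher without Kdm6b-cKO library 4, and 209 lower and 195 higher with weights by depth. At P30 it was 30 lower and 7 higher, 329 and 201 with limma's library weights, 365 and 185 with the 45S term, and 1 or 2 lower without WT library 2, 3, 4 or 5. Bhlhe22 was also under the filter of 5 FPKM in the genotype tests at P30 and gave no value there. Depth limits Bhlhe22 at P30 and all factors in the shallow P1 libraries.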

Other observations

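For each factor, the genes with the most similar profile over the 24 libraries were found among 7704 genes averaging 5 FPKM or more at both ages, by the root mean square difference of log2(FPKM + 0.1) after centring within each age. Mef2c was closest to Anks1b (0.271), Kif3c (0.280) and Pde4dip (0.289), with a median over all genes of 0.707. Neurod2 was closest to Ptms (0.301), Gon4l (0.308) and Slc6a17 (0.311), and Neurod1 to Fasn (0.272), Syt1 (0.284) and Zeb2 (0.288). Neurod6 was closest to Cops4 (0.221), Rab7 (0.275) and Snx6 (0.280). Bcl11a was closest to Mettl2 (0.217), Ddx50 (0.228) and Hdgf (0.241).

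The NFI genes had no neighbours in common: Nfix was closest to Gripap1 (0.247), Dync1h1 (0.247) and Soga3 (0.258), Nfib to Prpf18 (0.216), Picalm (0.240) and Tia1 (0.249), and Nfia to Dnajc18 (0.324), Tox4 (0.376) and E330033B04Rik (0.390). Bhlhe22 had the least similar neighbours, Zfp811 (0.390), Cnot6 (0.413) and Gm20716 (0.414). These profiles share the libraries and their depth and technical levels.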
